A study of Mus musculus with 16 samples.

Results

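The genes described here are 8 genes known from the endocardium, the endothelial lining of the heart: the natriuretic peptide receptor gene Npr3, the transcription factor genes Hand2, Nfatc1, Gata4, Gata5, Gata6 and Tbx20, and the growth factor gene Nrg1. They were taken by gene symbol from the deposited tables, as 8 of 22096 symbols, and all 8 were among the 10550 genes with a mean FPKM (fragment number per transcript length and library size) of at least 1. The set was selected on the expression values of these same libraries, above all those of 12/-, as known from earlier results. Every comparison that contains a 12/- library is therefore given as a description and supports nothing. The other comparisons use libraries that also entered this selection, so they are not independent of it.

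The RNA came from endothelial cells of day 9.5 mouse embryos, sorted from whole embryos by their surface CD31. The 16 libraries carried 6 pairs of Notch1 alleles. The genotypes were 12/- (3 libraries, endothelial development impaired according to the labels), 12/vg (1 library, partly impaired), +/12, +/vg, +/- and +/+ (3 libraries each, normal). The 12 allele carries the Notch2 intracellular domain in place of that of Notch1, the vg allele releases a less stable Notch1 intracellular domain, - is the null allele and + is wild type. Neither 12/- nor 12/vg holds a wild-type allele, +/12, +/vg and +/- hold 1, and +/+ holds 2. The +/12, +/vg, +/- and +/+ libraries, 12 in all, are called the normal groups below. Their mean in a comparison weights the 4 groups equally. Whether a library came from 1 embryo or from several is not in the labels, so the spread behind the p-values is that of libraries and may in part be technical.

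The endocardium arises with the heart tube and keeps a contact with the muscle layer through signals in both directions. In the atrioventricular canal some of its cells become the mesenchyme of the valve cushions, and in the ventricle it sends neuregulin to the muscle, where trabeculae form. Notch1 is active in the endocardium and is required for both processes in the mouse. A CD31 sort of whole embryos holds endocardium beside all other endothelium, so fewer endocardial cells and less RNA per endocardial cell cannot be told apart in these values.

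All values below are FPKM after scaling between libraries, called scaled FPKM. The libraries held between 1.11 and 1.80 gigabases of aligned sequence, except +/- replicate 2 with 0.189 and the 12/vg library with 0.262. Aligned sequence on 1 of the 8 genes ranged from 1338 bases (Nrg1) to 21923 bases (Nfatc1) in these shallow libraries and from 3712 bases (Nrg1) to 206776 bases (Npr3) in the other 14. Notch1 itself was at 15.4 to 19.7 scaled FPKM in 12/-, 15.4 in 12/vg, 14.5 to 16.0 in +/12, 20.4 to 23.2 in +/vg, 16.4 to 23.2 in +/- and 17.4 to 23.3 in +/+; the part removed in the null allele is not in the labels, so this does not check that allele. The endothelial markers, 10 of 10 tested, summed to 973 to 1153 scaled FPKM in 12/-, 962 in 12/vg and 845 to 999 in the normal groups, and none of the 10 was at 0 in any library. Among them Pecam1, the gene of CD31, was at 72.6 to 89.2 in 12/-, 59.5 in 12/vg and 46.1 to 71.8 in the normal groups. Its log2 difference between 12/- and the normal groups was 0.50 (SE 0.13), beside a median of 0.20 over the 10. None of the 10 had a limma adjusted p under 0.05 there, and the part of Pecam1 in the values of the 8 genes was not tested. The number in each library's file name was low (203 to 248) for all 12/-, 12/vg and +/12 libraries and high (371 to 380) for all +/+ libraries, with 1 low and 2 high libraries in +/vg and in +/-. The labels name no batch, and comparisons that hold within 1 range of numbers are given beside the pooled ones.

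Averaged over the 16 libraries, which share the endothelial sort, the genes ranked Nfatc1 (17.6 ± 1.80 scaled FPKM), Gata4 (14.0 ± 2.49), Npr3 (10.5 ± 2.86), Hand2 (10.4 ± 4.29), Tbx20 (8.48 ± 2.19), Gata6 (6.26 ± 1.44), Gata5 (5.04 ± 1.94) and Nrg1 (3.52 ± 1.48; SD, n = 16 in each case). Npr3 and Hand2, Hand2 and Tbx20, and Gata6 and Gata5 differed by less than the SD of either gene, while the other neighbours in this order differed by more than at least 1 of their SDs. In the ranking of all tested genes, Nfatc1 stood above 77.4% of them and Nrg1 above 29.6%. The highest library was 1.48 times the lowest for Nfatc1 and 5.36 times for Gata5, the extremes among the 8.

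**Figure D1:**
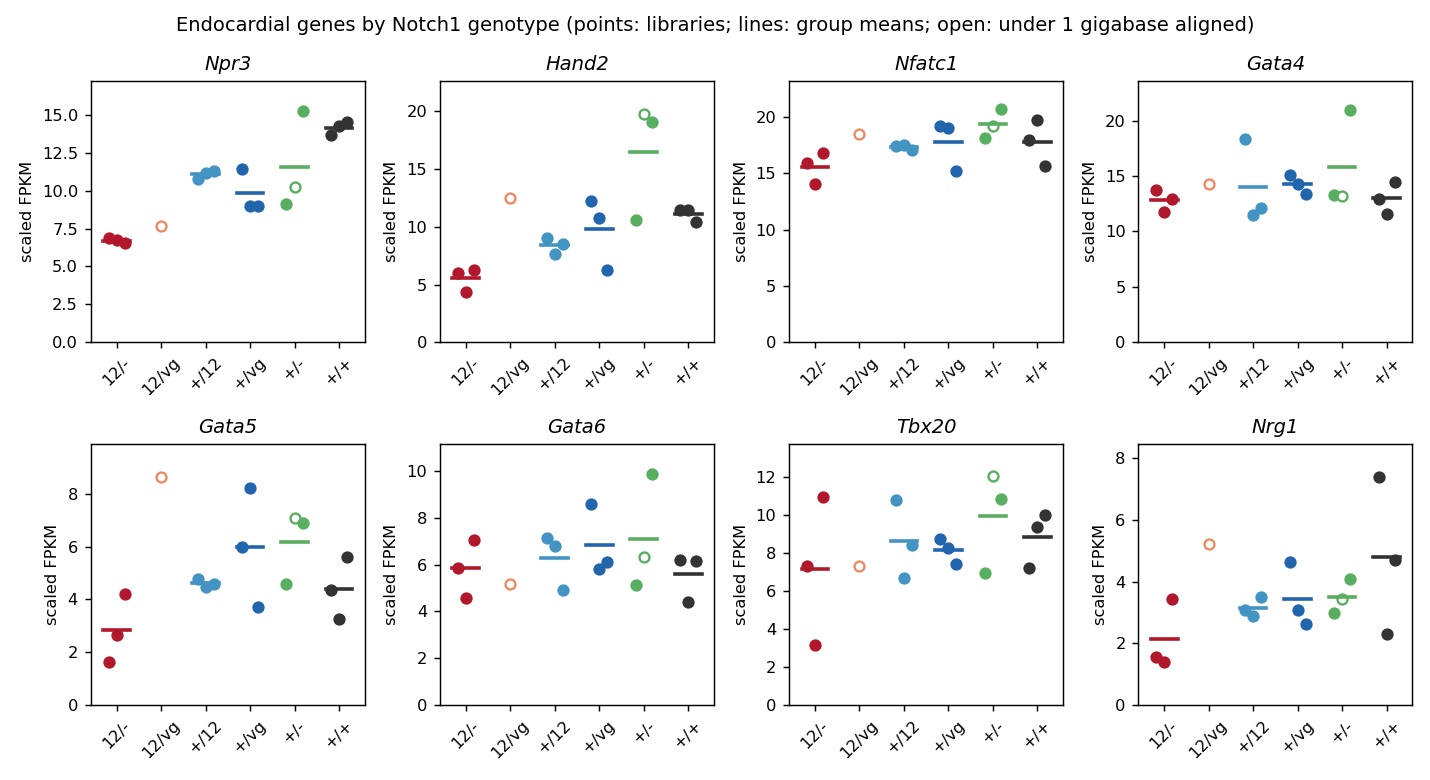
Scaled FPKM (y axis, from 0) of each of the 8 genes by Notch1 genotype (x axis); points are libraries, lines are group means, and open points are the 2 libraries under 1 gigabase of aligned sequence. For Npr3 and Hand2 all 3 12/- libraries lie below all 12 libraries of the normal groups. In Gata4 and Gata6 the groups of 3 libraries overlap throughout.

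Npr3 encodes the natriuretic peptide clearance receptor, which binds natriuretic peptides and takes them up, and it marks the endocardium of the embryonic mouse heart. Its level was 6.87, 6.71 and 6.53 scaled FPKM in 12/-, 7.65 in 12/vg, 10.8, 11.2 and 11.3 in +/12, 11.4, 9.01 and 8.99 in +/vg, 9.13, 10.2 and 15.2 in +/-, and 13.7, 14.3 and 14.5 in +/+. The 4 libraries without a wild-type allele were below the other 12, which 0.284% of all tested genes showed. The 3 +/+ libraries were above all others but 1, +/- replicate 3. Npr3 lies on chromosome 15, 11769651 to 11835429 (mm9), and its value is the sum of a pair of transcripts of 6923 and 6926 nt that differ by so little that their split was not read.

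Set against 2 wild-type alleles, Npr3 averaged 10.8 ± 1.93 scaled FPKM with 1 allele (SD, n = 9) and 14.1 ± 0.434 with 2 (SD, n = 3). The log2 difference was -0.37 with an SE of 0.12, with a limma adjusted p = 0.559, so it did not pass. None of the 8 genes was called in this comparison, where 0.00948% of all genes were called at an adjusted p under 0.05, and Npr3 was the 1 of 8 with an unadjusted p under 0.05, a share that was 7.67% over all genes. Within the high range of library numbers, the 4 libraries with 1 wild-type allele held 9.01 to 11.4. The 3 +/+ libraries held 13.7 to 14.5, without overlap and with a log2 difference of -0.47. That range leaves out +/- replicate 3, which at 15.2 was above all +/+ libraries, and all +/12 libraries. The pooled ranges overlapped, and the share of all genes without overlap in the high range was not computed. Without single libraries the pooled log2 difference ran from -0.44 to -0.33. The value of -0.44 was that without +/- replicate 3, with an SE of 0.086 and a limma adjusted p = 0.379. The 7 heart muscle markers tested had a median log2 difference of -0.68 between 1 and 2 alleles, none of them called, and their part in the Npr3 values was not tested.

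Genotype by genotype, Npr3 differed from +/+ by -0.32 (SE 0.15) in +/12, by -0.49 (SE 0.15) in +/vg and by -0.30 (SE 0.15) in +/- on the log2 scale. The difference of +/vg had a limma adjusted p = 0.443, and no gene at all was called in any of these 3 comparisons, the share of genes called being 0 in each. With an unadjusted p under 0.05 there were 566 genes in +/12, 792 in +/vg and 793 in +/-, each against +/+. The median of the 7 heart muscle markers differed from +/+ by -1.11 in +/12, by -0.75 in +/vg and by -0.88 in +/-. The ranges of +/vg and +/+ did not overlap, as for 6.28% of all genes in which +/vg was the lower, and those of +/12 and +/+ did not overlap either, as for 5.95%. In the 12/vg library Npr3 was 0.53 lower than in the normal groups on the log2 scale (SE 0.19, 95% interval -0.94 to -0.11, limma adjusted p = 0.183), a difference that rests on 1 shallow library, assumed to vary like the other groups. Npr3 was the 1 gene of the 8 that was lower in 12/vg than in every library of the normal groups, which 14.1% of all genes were.

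As a description, Npr3 in 12/- averaged 6.70 ± 0.168 scaled FPKM (SD, n = 3), against 11.6 ± 2.24 in the normal groups (SD, n = 12), a log2 difference of -0.69 with an SE of 0.12. It was the 1 of the 8 genes called lower in 12/- than in the normal groups, where 0.0664% of all genes were called lower. Against +/+ alone it was again the 1 of the 8 called, at -0.97 (SE 0.15), with the same 0.0664% of all genes called lower, and against +/vg, at -0.48 (SE 0.15), none of the 8 was called and 0.0379% of all genes were called lower. The median of the heart muscle markers was -0.34 in 12/- against the normal groups, -0.74 against +/+ and -0.25 against +/vg. It was 0.14 against +/- and 0.20 against +/12, where Npr3 differed by -0.67 and -0.65. The ranges of 12/- lay below those of +/+ for 9.47% of all genes and below those of +/vg for 10.5%, in both cases with Npr3 and Hand2 among them. Without 12/- replicate 1 or replicate 3, or without +/+ replicate 3, the call against +/+ was lost, without any 1 of the 3 12/- libraries the call against the normal groups was lost, and without scaling both were. Within the low range of library numbers, 12/- held 6.53 to 6.87 and the 5 libraries of the normal groups 8.99 to 15.2. The log2 difference there was -0.68, and the share of all genes without overlap in that range was not computed. Along the number of wild-type alleles, the median of Npr3 was 6.79 with 0, 10.8 with 1 and 14.3 with 2, a slope of 0.47 per allele on the log2 scale (SE 0.070). This was the 1 gene called with a positive slope, 0.00948% of those tested, in a fit that contains the 12/- libraries. Without the 2 shallow libraries 14 genes were called with a positive slope, Npr3 among them. Npr3 was not called without scaling, without a filter on low values, with the range of library numbers as a covariate or without any 1 of the 12/- libraries.

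**Figure D2:**
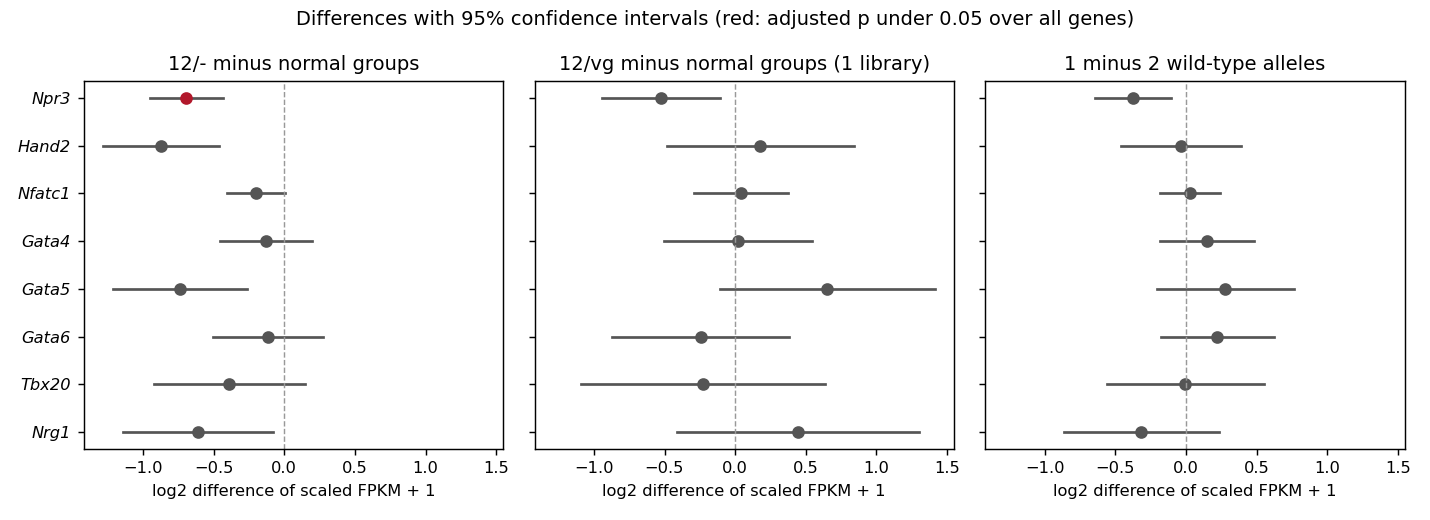
Log2 difference of scaled FPKM + 1 (x axis) for each of the 8 genes (y axis), as points with 95% confidence intervals, for 12/- minus the normal groups, 12/vg minus the normal groups and 1 minus 2 wild-type alleles; red marks an adjusted limma p under 0.05 over all genes. Npr3 lies below 0 in all 3 panels (-0.69, -0.53 and -0.37), whereas Gata5 lies at -0.74, 0.65 and 0.28.

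Hand2 encodes a basic helix-loop-helix factor required for heart and vessel development in the mouse, which is made in the endocardium, in part of the heart muscle and in the branchial arches. The gene lies on chromosome 8, 59799779 to 59803314 (mm9), with 1 transcript of 2235 nt in the files. Its promoter is shown because Hand2 had the largest difference of the 8 genes between 12/- and the normal groups, and because the factors of 4 of the 8 genes (Hand2 and the GATA factors) bind the motifs searched for. The 250 bases before the start, from RefSeq on GRCm38.p6 at chr8:57320733-57320982, plus strand, read as follows, with motif matches in capitals.
Hand2: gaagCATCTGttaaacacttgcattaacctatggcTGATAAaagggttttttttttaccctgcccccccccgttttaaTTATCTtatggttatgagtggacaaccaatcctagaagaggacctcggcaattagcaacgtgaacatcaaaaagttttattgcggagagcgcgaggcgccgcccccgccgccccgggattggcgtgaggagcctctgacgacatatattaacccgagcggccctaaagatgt
The GATA motif, searched as AGATAA or TGATAA on both strands, matched at 215 and 172 bases before the start, and the letters CATCTG, an E-box used for HAND factors, matched at 246 bases before it. The RBPJ motif of Notch target genes, searched as TGGGAA on both strands, had no match in this window. Of 32851 RefSeq windows of the same length, 16.6% held the GATA letters, 14.4% CATCTG and 21.6% TGGGAA. The matches do not overlap one another, and a match describes letters and not a bound site. RefSeq windows were at hand for 4 of the 8 genes, and those of Npr3, Gata5 and Tbx20 held none of the 3 motifs; the window of Npr3 lies upstream of the start of the transcripts measured here.

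Hand2 was at 6.00, 4.38 and 6.27 scaled FPKM in 12/-, 12.5 in 12/vg, 9.05, 7.65 and 8.48 in +/12, 12.3, 10.8 and 6.31 in +/vg, 10.6, 19.8 and 19.1 in +/-, and 11.5, 11.5 and 10.4 in +/+. All 12/- libraries were below all 12 libraries of the normal groups, with +/vg replicate 3 (6.31) just above the highest 12/- library (6.27). The 12/vg library was not low: it exceeded all 3 +/+ libraries. The highest values were those of 2 of the 3 +/- libraries, +/- replicates 2 and 3.

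Among the genotypes with 1 wild-type allele, Hand2 averaged 8.39 ± 0.706 scaled FPKM in +/12, 9.77 ± 3.09 in +/vg and 16.5 ± 5.10 in +/- (SD, n = 3 each). The log2 difference of +/12 from +/- was -0.85 (SE 0.24, limma adjusted p = 0.881) and that of +/vg from +/- was -0.70 (SE 0.24, limma adjusted p = 0.532). Without single libraries the former ran from -1.12 to -0.70 and the latter from -0.97 to -0.44, the last value without +/vg replicate 3. Neither passed, although Hand2 was the 1 gene of the 8 with an unadjusted p under 0.05 in each, and the share of all genes called was 0 in both comparisons, with 506 and 890 genes at an unadjusted p under 0.05. The ranges of +/12 and +/- did not overlap, as for 3.66% of all genes with +/12 below. Against +/+, Hand2 differed by 0.48 in +/- (SE 0.24, adjusted p = 0.675), by -0.21 in +/vg (SE 0.24, adjusted p = 0.899) and by -0.37 in +/12 (SE 0.24, adjusted p = 0.926), none of them called. With 1 against 2 wild-type alleles the log2 difference was -0.03, with a 95% interval of -0.46 to 0.39.

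In the 12/vg library Hand2 differed from the normal groups by 0.18 on the log2 scale (SE 0.31, 95% interval -0.49 to 0.84), and by -0.10 with the aligned sequence as a covariate. As a description, Hand2 averaged 5.55 ± 1.02 scaled FPKM in 12/- (SD, n = 3) and 11.4 ± 4.12 in the normal groups (SD, n = 12), a log2 difference of -0.87 (SE 0.19). Hand2 was not called there, and against +/- alone, at -1.38 (SE 0.24), it was the 1 of the 8 genes called, where 0.0569% of all genes were called lower. That call was lost without the shallow +/- replicate 2, without any 1 of the 12/- libraries, with the range of library numbers as a covariate (limma adjusted p = 0.185) and with only the groups compared (limma adjusted p = 0.238), with log2 differences between -1.46 and -1.24 in these fits. Against +/12, which lies in the same range of library numbers, Hand2 in 12/- differed by -0.53 (SE 0.24) and Npr3 by -0.65 (SE 0.15), and none of the 8 genes was called, the share of all genes called lower being 0 and higher 0.209%. Hand2 and Npr3 were the 2 of 8 genes whose 12/- libraries all lay below every normal library, against 0.929% of all genes.

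Nfatc1 encodes a transcription factor that calcineurin brings to the nucleus and that the endocardium needs to form valves in the mouse. Its level was 15.9, 14.0 and 16.8 scaled FPKM in 12/-, 18.5 in 12/vg, 17.4, 17.5 and 17.0 in +/12, 19.2, 19.0 and 15.2 in +/vg, 18.1, 19.1 and 20.7 in +/-, and 18.0, 19.7 and 15.7 in +/+. The 12/- libraries overlapped +/vg and +/+ and lay below all +/12 and +/- libraries, as for 6.86% and 6.44% of all genes. In Gata5, Hand2 and Npr3, too, the 12/- libraries lay below all +/12 and all +/- libraries. The log2 difference was -0.20 (SE 0.095) between 12/- and the normal groups, 0.04 (SE 0.15) between 12/vg and the normal groups, and 0.03 (95% interval -0.18 to 0.24) between 1 and 2 wild-type alleles. No comparison called Nfatc1.

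The files hold 6 Nfatc1 transcripts on chromosome 18 (80802943 to 80909810, mm9), with an upstream start at 80909810 and a downstream start at 80904912. The share of the gene's FPKM on the upstream start was 79.1%, 33.0% and 63.9% in 12/-, 97.4% in 12/vg, and from 29.8% to 80.8% in the normal groups, with a median of 45.9%. The shares of 12/- thus spanned nearly the whole range of the normal groups. The 12/vg library stood above all others, with 0.486 scaled FPKM on the downstream start against 3.68 to 11.2 in the normal groups, in a library of 0.262 gigabases whose part in this was not tested.

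**Figure D3:**
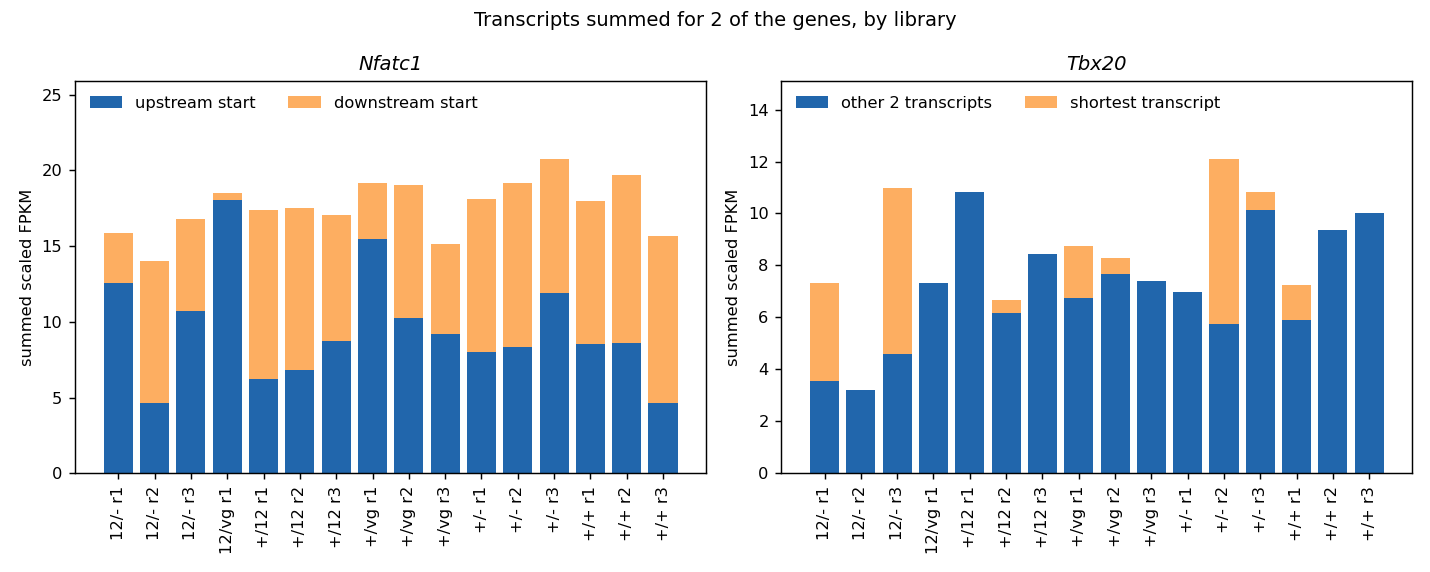
Scaled FPKM (y axis, from 0) of Nfatc1 split by transcript start and of Tbx20 split into its shortest transcript and the other 2, stacked per library (x axis; r is the replicate). The downstream start of Nfatc1 is nearly absent in 12/vg, and the shortest Tbx20 transcript exceeds 3 scaled FPKM in 3 libraries, 2 of them 12/-.

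Gata4, Gata5 and Gata6 encode zinc finger factors that bind GATA sequences and act in heart muscle, endocardium and endoderm. Gata4 (chromosome 14, 63817751 to 63864097) was at 13.7, 11.8 and 12.9 scaled FPKM in 12/-, 14.3 in 12/vg, 18.4, 11.5 and 12.1 in +/12, 15.1, 14.3 and 13.4 in +/vg, 13.3, 13.2 and 20.9 in +/-, and 12.9, 11.6 and 14.4 in +/+. The groups of 3 libraries overlap throughout, and only +/12 replicate 1 and +/- replicate 3 exceed 15.1. The 12/vg library lies above all 12/- libraries. Gata6 (chromosome 18, 11052507 to 11085633) was at 5.86, 4.59 and 7.07 scaled FPKM in 12/-, 5.18 in 12/vg, 7.12, 6.80 and 4.91 in +/12, 8.60, 5.81 and 6.13 in +/vg, 5.14, 6.33 and 9.88 in +/-, and 6.19, 4.42 and 6.16 in +/+. Its groups of 3 libraries overlap too, the 12/vg library lies below all +/vg libraries, and +/- replicate 3 is again the highest library.

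Gata5 (chromosome 2, 180059792 to 180069384) was at 1.61, 2.66 and 4.21 scaled FPKM in 12/-, 8.64 in 12/vg, 4.77, 4.47 and 4.59 in +/12, 6.00, 8.22 and 3.72 in +/vg, 4.59, 7.09 and 6.88 in +/-, and 4.35, 3.25 and 5.60 in +/+. The lowest 2 of the 16 libraries were 12/- libraries and the highest was 12/vg, so the genotypes without a wild-type allele held both ends of the range. The log2 difference from the normal groups was 0.65 in 12/vg (SE 0.35, 95% interval -0.11 to 1.41, limma adjusted p = 0.341) and, as a description, -0.74 in 12/- (SE 0.22). Gata5 was above every normal library in 12/vg, which 13.7% of all genes were.

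Between 1 and 2 wild-type alleles the log2 differences were 0.15 for Gata4 (95% interval -0.19 to 0.48), 0.28 for Gata5 (-0.21 to 0.77) and 0.22 for Gata6 (-0.18 to 0.62), none of them called. That of Gata5 ran from 0.12 without +/+ replicate 2 to 0.43 without +/+ replicate 3. In 12/vg, Gata4 differed from the normal groups by 0.02 (SE 0.24) and Gata6 by -0.25 (SE 0.29). In 12/-, as a description, Gata4 differed by -0.13 (SE 0.15) and Gata6 by -0.11 (SE 0.18), each within its own error. Without 12/- replicate 2 the difference of Gata6 was 0.02.

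Tbx20 encodes a T-box factor required for heart chamber and valve development in the mouse. Summed over its transcripts (chromosome 9, 24525255 to 24578747) it was at 7.31, 3.19 and 11.0 scaled FPKM in 12/-, 7.33 in 12/vg, 10.8, 6.69 and 8.46 in +/12, 8.76, 8.29 and 7.42 in +/vg, 6.98, 12.1 and 10.8 in +/-, and 7.24, 9.38 and 10.0 in +/+. The 12/- libraries included the lowest of all 16 and 1 of the 2 highest. The log2 difference from the normal groups was -0.39 in 12/- (SE 0.25) and -0.23 in 12/vg (SE 0.40), and it was -0.005 between 1 and 2 wild-type alleles (95% interval -0.56 to 0.55).

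The spread of Tbx20 in 12/- came with its shortest transcript, of 1427 nt. That transcript was at 3.77, 0.0005 and 6.40 scaled FPKM in 12/-, 0.0003 in 12/vg, at most 2.00 in 11 of the 12 normal libraries and 6.34 in the shallow +/- replicate 2, and it was under 0.001 in 8 of the 16 libraries. The other 2 transcripts summed to 3.54, 3.19 and 4.58 in 12/-, 7.33 in 12/vg and 5.74 to 10.8 in the normal groups, with a median of 7.55. As a description, on these 2 all 12/- libraries lay below all normal libraries, with a log2 difference of -0.89 (SE 0.18). Of all genes, with no transcript left out, 0.929% had all 12/- libraries below all normal libraries. Leaving out the shortest transcript was chosen after its values were seen, and how the authors' estimates split reads between transcripts was not tested.

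Nrg1 encodes neuregulin, a ligand that endocardium sends to the ErbB2 and ErbB4 receptors of heart muscle. It was at 1.55, 1.39 and 3.45 scaled FPKM in 12/-, 5.24 in 12/vg, 3.09, 2.88 and 3.51 in +/12, 4.65, 3.07 and 2.64 in +/vg, 3.00, 3.44 and 4.09 in +/-, and 7.41, 2.29 and 4.69 in +/+. A pair of 12/- libraries were the lowest of the 16, the third lay among the normal groups, and the +/+ libraries spanned most of the range. The log2 difference was 0.45 in 12/vg (SE 0.39) and -0.61 in 12/- (SE 0.24) from the normal groups, and -0.32 between 1 and 2 wild-type alleles (95% interval -0.86 to 0.23), a value that was 0.00 without +/+ replicate 1. The files hold 1 Nrg1 transcript of 2103 nt over 100.2 kb (chromosome 8, 32928499 to 33028675). GENCODE M21 gives the gene 18 transcripts over 1069.5 kb, so isoforms that begin outside the 100.2 kb are not measured in full. The values of Gata4 likewise rest on 1 transcript over 46.3 kb, against 6 over 72.8 kb in GENCODE M21. Those of Gata6 rest on 1 over 33.1 kb, against 6 over 33.6 kb.

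Taken as a list, the 8 genes had a median log2 difference of 0.03 between 12/vg and the normal groups, with 5 positive and 3 negative, beside a median of -0.03 over all genes. Between 1 and 2 wild-type alleles the median was 0.01 with 4 in each direction, beside 0.00 over all genes. None of the 8 was called in 12/vg, where 0.332% of all genes were. As a description, all 8 were negative in 12/- against the normal groups, with a median of -0.50 and values from -0.87 (Hand2) to -0.11 (Gata6), beside -0.01 over all genes, of which 50.9% were negative. These comparisons share libraries, so their directions are not separate observations.

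Over the 14 libraries above 1 gigabase, which share the sort and span 5 genotypes, 12/- among them, Pearson's r between pairs of the 8 genes on the log2 scale ran from 0.26 (Npr3 and Gata6) to 0.87 (Hand2 and Nfatc1). Npr3 and Hand2 followed at 0.81 and Gata4 and Gata6 at 0.75. Among all other tested genes, those most like each of the 8 were Sik2 (r = 0.89) for Npr3, Arhgef17 (0.86) for Hand2, Tubb2b (0.89) for Nfatc1, Igf2r (0.89) for Gata4, Phc3 (0.85) for Gata5, Pigs (0.85) for Gata6, Trappc10 (0.85) for Tbx20 and Setdb2 (0.86) for Nrg1. The next were Smtnl2 (0.85), Mical2 (0.84), D6Wsu116e (0.80), Zfp827 (0.81), Zfp384 (0.80), Prr12 (0.84), Fut11 (0.82) and Msx1 (0.84), in the same order. No gene was the nearest neighbour of more than 1 of the 8. The r values of these neighbours are the highest 2 per gene in a search through all other tested genes, over 14 libraries. With 10550 genes tested, high values of r can arise by chance in such a search. The size of r to be had by chance was not tested, so the named neighbours are a description only.

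The partners of these genes were looked at in 6 lists of 50 genes in all, of which 33 were tested, and no partner was called in any of the 14 comparisons. Of the other natriuretic peptide genes, Npr1, a receptor with guanylyl cyclase activity, averaged 7.13 scaled FPKM and Nppa, which encodes the atrial peptide, 1.55, while Npr2 averaged 0.571. Of the neuregulin receptors, Erbb2 averaged 4.54, while Erbb3 averaged 0.187 and Erbb4 0.026. Of the ligands of that family, Hbegf averaged 5.15. Of the calcineurin genes, Rcan1, an inhibitor of calcineurin that NFAT factors induce, averaged 18.0, the catalytic subunit gene Ppp3ca 13.5 and the regulatory subunit gene Ppp3r1 10.8. Rcan1 was at 12.1 to 18.4 in 12/- and 13.5 to 24.5 in the normal groups, with a log2 difference of -0.15 (SE 0.13).

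Of the other GATA factors and their cofactors, Gata2, a factor of endothelial and blood cells, averaged 14.4 scaled FPKM, the FOG cofactor gene Zfpm1 10.3 and Gata1 2.71. Of the other heart factors, Mef2c averaged 11.9, Tbx1 5.61 and Hand1 5.24, while Nkx2-5, which marks heart muscle precursors, averaged 0.049 and was at 0 in 10 of the 16 libraries. Hand1, the relative of Hand2, was at 3.35 to 11.5 in 12/- and 1.77 to 10.9 in the normal groups, a log2 difference of 0.64 (SE 0.46). The median log2 difference of 12/- from the normal groups was 0.23 over the 5 other heart factors tested, -0.13 over the 5 GATA and FOG genes, -0.10 over the 7 calcineurin and NFAT genes, 0.05 over the 2 neuregulin partners and -0.46 over the 2 natriuretic genes. With 1 against 2 wild-type alleles these medians were 0.06, 0.20, -0.07, -0.04 and -0.47, in the same order.

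A list of 12 further genes that are high in endocardium, all tested, had a median log2 difference of -0.21 in 12/- against the normal groups and of 0.04 between 1 and 2 wild-type alleles. Its 3 most abundant genes were Hapln1, which links hyaluronan in the cushion matrix (62.5 scaled FPKM on average), the flow-responsive factor gene Klf2 (37.2) and Cgnl1, a junction protein gene (33.1), with log2 differences of -0.22 (SE 0.16), -0.25 (SE 0.28) and -0.26 (SE 0.14). In 3 of the 12 genes, Gpr126, Has2 and Cdh11, named after their values were seen, all 12/- libraries lay below all normal libraries, against 0.929% of all genes. The list of 12 was itself chosen with earlier results of these data known, so this is a description and supports nothing. Gpr126, an adhesion receptor gene, was at 1.63 to 2.10 in 12/- and 3.26 to 10.9 in the normal groups, a log2 difference of -1.06 (SE 0.25). Cdh11, a cadherin gene of mesenchyme and cushion cells, was at 1.06 to 1.50 and 2.32 to 9.21 in the same groups (-1.03, SE 0.26), and Has2, the hyaluronan synthase gene of cushions, at 0.878 to 1.72 and 1.85 to 4.62 (-0.70, SE 0.17). In the other direction, Smad6, an inhibitor of BMP signalling, was at 7.32 to 14.5 in 12/- and 3.88 to 11.3 in the normal groups (0.59, SE 0.28). In the 1 shallow 12/vg library the median of this list was -0.36 against the normal groups, beside -0.03 over all genes. None of the 12 was called.

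**Figure D4:**
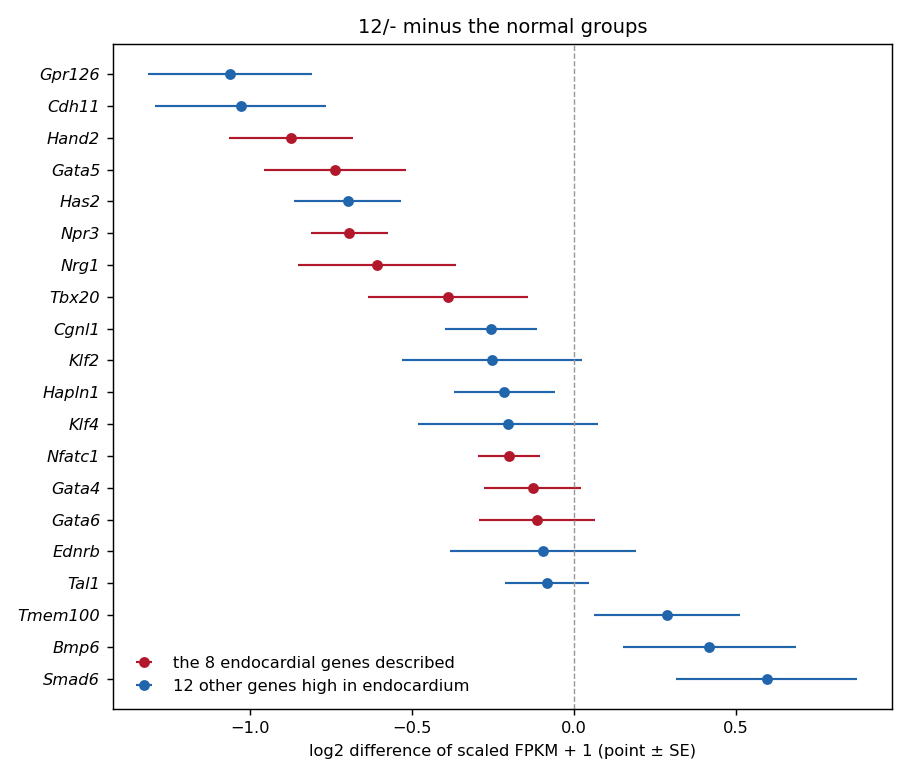
Log2 difference of scaled FPKM + 1 between 12/- and the normal groups (x axis; points with SE) for the 8 genes (red) and the 12 other genes high in endocardium (blue), sorted by value. All 8 lie below 0, and the 12 run from -1.06 (Gpr126) to 0.59 (Smad6).

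Markers of other cells that the sort could hold moved between libraries as follows, and their part in the results above was not tested. Heart muscle markers, 7 of 12 tested, summed to 34.7 to 47.8 scaled FPKM in 12/-, 43.4 in 12/vg and 22.5 to 89.8 in the normal groups, the highest sums being those of +/+ replicates 3 and 1. In +/+ replicate 2, where Npr3 was at 14.3, they summed to 29.7. Of the 12, Actc1 averaged 16.3, Tnni1 10.2, Tnnt2 8.95, Myl7 4.83 and Myl4 3.23, while Myh6 averaged 0.303 and Myh7 0.346. Mesenchyme and epicardium markers, 4 of 10 tested, summed to 9.49 to 17.2 in 12/-, 15.4 in 12/vg and 11.0 to 20.2 in the normal groups, with the lowest sums of all in 12/- replicates 1 and 2. Twist1, at 7.50 on average, made up the largest part of these sums. In 12/- against the normal groups the 4 tested ran from -0.67 (Pdgfrb, SE 0.22) to -0.02 (Col1a1, SE 0.45) on the log2 scale. Their median was -0.16, and none was called. Endoderm and yolk sac markers, 4 of 10 tested, summed to 1.44 to 5.49 in 12/-, 7.59 in 12/vg and 1.47 to 50.6 in the normal groups, the highest being the shallow +/- replicate 2, 1 of the 2 libraries with the most Hand2. In +/- replicate 3, the other library with high Hand2, the endoderm sum was 1.47. Its mesenchyme and epicardium sum was the highest of all, at 20.2, against 14.8 in +/- replicate 2. Erythroid markers, 3 of 7 tested, summed to 76.6 to 327 in 12/-, 23.8 in 12/vg and 88.4 to 241 in the normal groups, and neural markers, 1 of 7 tested, to 27.0 to 39.0, 42.0 and 19.0 to 39.2 in the same groups. Of all the markers, 1 was called in any comparison: Hbb-y, an embryonic globin gene, was lower in the 12/vg library, at 1.73 scaled FPKM, against 29.0 to 82.6 in the normal groups (log2 difference -4.14, SE 0.58, limma adjusted p = 0.014).

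**Figure D5:**
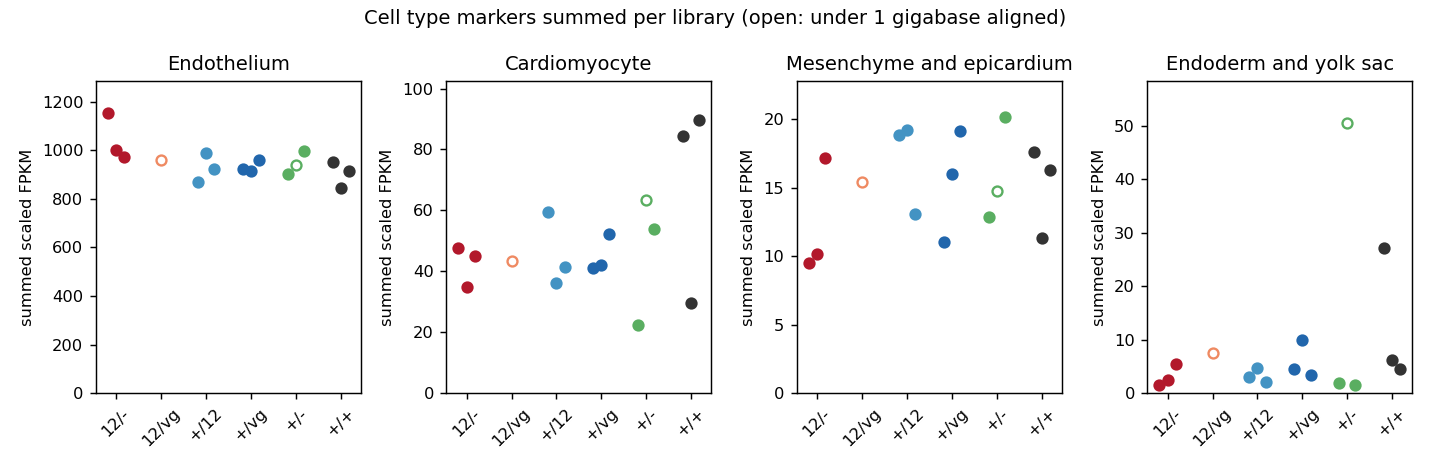
Summed scaled FPKM (y axis, from 0) of markers of endothelium, heart muscle, mesenchyme and epicardium, and endoderm and yolk sac by Notch1 genotype (x axis); points are libraries and open points are under 1 gigabase of aligned sequence. The sums of 12/- lie inside the range of the normal groups for heart muscle, whereas 2 endothelial sums of 12/- (1153 and 1001) lie above it.

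Reads from the opposite strand could enter some of these values, since nothing in the sources used here gives the strandedness of the libraries. GENCODE M21 places Hand2os1 across from Hand2, Gata5os across from Gata5, 1010001N08Rik across from Gata6, Gm5144 across from Npr3, AC123818.1 across from Nfatc1, and Gm26578 and Gm22140 across from Nrg1, and reads of such a pair cannot be told apart without strand. No other symbol in the deposited tables overlaps any of the 8 genes.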

How the data were processed

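Each library has a deposited table of 28107 RefSeq transcripts with FPKM and coverage columns, a cufflinks layout per the file headers. The submitters' processing notes name TopHat2 2.0.9 as a tool and mm9 as the build. Strandedness, read length and the cufflinks version are not stated there. Coverage divided by FPKM, both as the authors deposited them, is 1 constant per library, its aligned gigabases. FPKM is not a count, so no count test, counting interval or floor is given, and precision is lowest for low values at shallow depth.

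FPKM was summed over transcripts per gene symbol (Python 3.11.15, pandas 2.3.3). The 211 symbols with a transcript whose status was not OK were left out, and the test took the 10550 whose mean FPKM reached 1. Scaling used median ratios over 8638 genes at an FPKM of 1 or more in all libraries. log2(scaled FPKM + 1) was the response in limma 3.58.1, run in R 4.3.3 (trend=TRUE, two-sided), with 16 libraries in 6 groups. On this scale a difference understates the change of low genes. p-values were adjusted by Benjamini-Hochberg over the tested genes, and a gene is called below 0.05. The fit was tested on simulated data. The wild-type genotype is spelled in 2 ways in the labels and was taken as 1 group. Replicate numbers are in accession order and pair nothing.

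The 8 genes and all lists were chosen with earlier results of these data known. Named are the 8 genes, the partners called or otherwise up to 3 of each list with the highest mean (further partners are named beside them as values), and the 2 genes most like each of the 8 by Pearson's r. Alternatives were other scaling, pseudocounts, filters, moderation, weights, covariates and left-out libraries.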

Additional observations from a re-analysis of the deposited data

Results flagged for a closer look

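Npr3 was at 15.21 scaled FPKM in +/- replicate 3, far above the other 8 libraries with 1 wild-type allele, which ran from 8.99 to 11.4. Of 16 sets of libraries looked at this way, this was the 1 that stood apart, and chance flags about 1 in 20. The same library was the highest of the 16 for Nfatc1, Gata4 and Gata6, at 20.7, 20.9 and 9.88 scaled FPKM.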

How the results depend on the processing

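No paired analysis was possible because the labels give no replicate numbers beyond the order of the samples. Of 30 alternatives, 14 changed the processing and 16 left out 1 library each; 1 of them, Tbx20 without its shortest transcript, was chosen after seeing the data. In 12/- against +/+ the count of the 8 genes called was 1 and became 0 without scaling, and it was 0 to 1 without single libraries (0 without +/+ replicate 3, 12/- replicate 1 or 12/- replicate 3). In 12/- against +/- it was 1 and became 0 with the range of library numbers as a covariate, without the 2 shallow libraries or with only the groups compared, and it was 0 to 2 without single libraries (2 without +/- replicate 1, 0 without +/- replicate 2 or any 12/- library). In 12/- against +/12 it was 0, 1 with array weights and 0 to 1 without single libraries (1 without +/- replicate 3). In 12/- against the normal groups it was 1, became 0 without scaling and 2 with a minimum FPKM of 1 in each library, robust moderation, array weights, aligned gigabases as a covariate or Tbx20 without its shortest transcript, and was 0 to 2 without single libraries. The slope called 1 of the 8, and 0 without scaling, without a filter or with the number range as a covariate, and 0 to 1 without single libraries. The other comparisons called 0 of the 8 under every alternative run. Npr3 kept its sign under all alternatives in the comparisons listed here and was called in 25 of 29 against +/+, in 25 of 29 against the normal groups and in 22 of 28 for the slope, each time with 12/- libraries in the fit; Hand2 was called in 6 of 29 against the normal groups and in 22 of 29 against +/-. Signs turned in 12/- against the normal groups for Gata6, which ran from -0.241 to 0.0233 without single 12/- libraries, and for Tbx20, from -0.728 to 0.0289, both positive without 12/- replicate 2, for Hand2 in 12/vg (-0.10) with aligned gigabases as a covariate and for Nrg1 between 1 and 2 wild-type alleles (-0.672 to 0.00244 without single libraries, positive without +/+ replicate 1); the cause was not tested. Over all genes, 12/- against the normal groups called 83 genes, 139 without the shallow libraries and 47 with the number range as a covariate; 12/- against +/+ called 63, 115 and 23, 12/- against +/- 60, 42 and 35, 12/- against +/12 22, 41 and 35, 12/- against +/vg 47, 95 and 38, and the slope 4, 66 (14 positive and 52 negative) and 0, in the same order. In 12/vg, 35 genes were called and 6 without scaling. The 12/vg comparison was not run without its own library, nor the slope with only the groups compared. Depth is least in +/- replicate 2 and 12/vg, and of the 8 genes Nrg1 holds the least aligned sequence there.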
